A study of Bos taurus with 12 samples.

Results

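Cattle chromosomes 18, 19 and 25 held 20609 of the 198322 methylated DNA peaks that lay on the 29 autosomes, away from the chromosome ends, in 12 capture libraries of beef muscle. Peaks were taken by their chromosome alone, and the first and last 3 Mb of each chromosome were left out, counted from the highest peak end over all lists. This kept 154.96 Mb of the 3 chromosomes and 2182.96 Mb of the 26 other autosomes. Over the whole genome, ends included, the 12 lists held 254474 peaks. Another 30325 peaks of the 3 chromosomes came from 6 lists called on merged replicates.

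The study used DNA of longissimus muscle from Angus steers of 1 herd, all about 12 months old, contemporaneous and on the same pelleted diet, and compared tender with tough beef, set by the lowest and the highest shear force. DNA of 2 tender and 2 tough animals was captured with a methyl-CpG binding domain protein and eluted in 3 steps. The levels are called high, medium and low methylated, each with 2 libraries of tender (HTE, MTE, LTE) and 2 of tough beef (HTO, MTO, LTO). No group received an agent, and the DNA came from whole muscle, so the cell types in it cannot be told apart. The study's sources differ in the salt step they give for each level, so the libraries are named here by level only. The labels call the muscle longissimus dorsi. Reads of 50 bases left 3677473 to 7981292 tags per library after duplicate removal, and a list held 9944 to 36663 peaks. LTE_1 had the shortest list, with 8123 peaks away from the ends against 14534 to 24079 in the other low libraries, so its values are given apart where they matter.

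In MBD-seq, a protein domain that binds methylated CpG pulls down DNA fragments, and fragments with more methylated CpGs are held more tightly. A peak is therefore taken as a place rich in methylated CpGs, which needs both the CpGs and their methylation. The lists were called without an input control, so this reading of single peaks was not tested. Gene-dense chromosomes of mammals are rich in G and C and in CpG islands, and much of the CpG inside gene bodies is methylated.

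The 3 chromosomes were the most gene-dense of the autosomes. In the RefSeq gene table of the assembly ARS-UCD2.0, which is not the build of the peak lists (bosTau8), chromosome 19 held 18.8 protein-coding genes per Mb, chromosome 18 held 18.7 and chromosome 25 held 16.7. Next came chromosome 23 with 13.4. Together the 3 chromosomes carried 3129 of 20280 protein-coding genes of the autosomes. A list of 30 muscle, connective tissue and fat genes was drawn up for these chromosomes. Its tally thus does not measure how rich they are in such genes. Of the 30 genes, 29 were found by symbol, 8 on chromosome 18, 19 on chromosome 19 and 2 on chromosome 25. Among them were the myosin heavy chain genes MYH1, MYH2 and MYH4 on chromosome 19, which encode the motor proteins of fast fibres, and FASN, which makes fatty acids. RYR1, the calcium release channel of muscle, was on chromosome 18, and ELN, the gene of elastin, on chromosome 25. No peak was assigned to a gene, since the table and the lists use different builds.

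Peaks were denser on the 3 chromosomes than on the other autosomes in all 12 libraries. At the high level, the 3 chromosomes had 5.27 and 6.62 peaks per Mb in HTE_1 and HTE_2, and 4.57 and 5.65 in HTO_1 and HTO_2. The other autosomes had 3.53, 3.95, 3.33 and 3.78 in the same order. The density on the 3 chromosomes was thus 1.37 to 1.67 times that of the others.

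The medium level had the widest gap. MTE_1 and MTE_2 had 20.3 and 21.5 peaks per Mb on the 3 chromosomes against 10.6 and 11.3 elsewhere, and MTO_1 and MTO_2 had 13.5 and 14.4 against 7.56 and 7.86. The 4 ratios lay between 1.79 and 1.91. At the low level the ratios were smaller, at 1.18 and 1.27 in LTE_1 and LTE_2 and 1.39 and 1.55 in LTO_1 and LTO_2. Peaks per Mb there were 4.07, 7.77, 13.9 and 15.4 on the 3 chromosomes and 3.43, 6.11, 10.02 and 9.94 elsewhere.

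**Figure D1:**
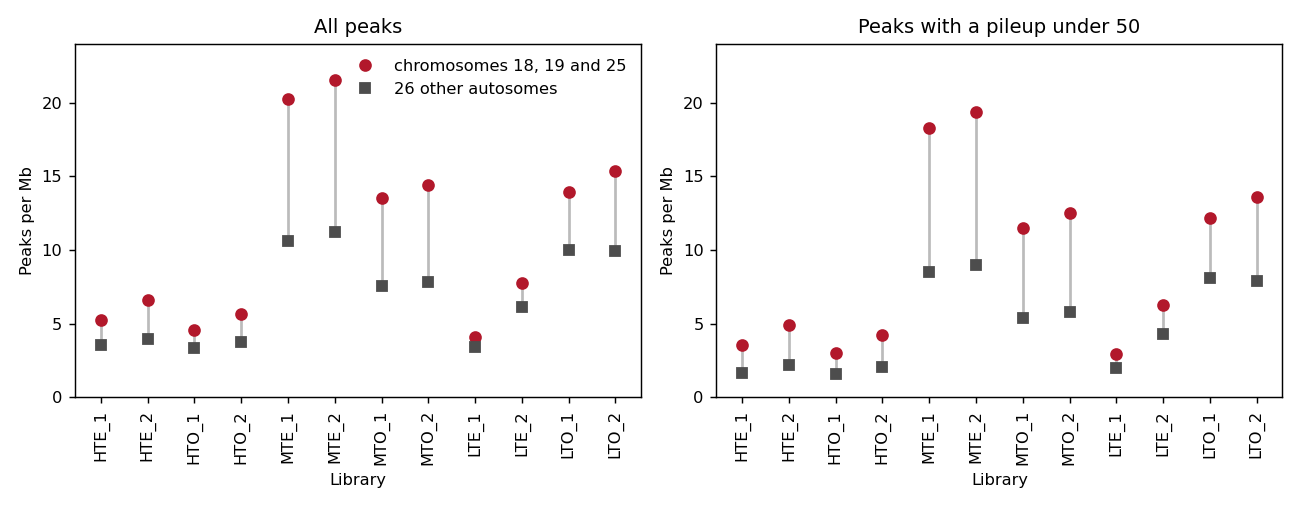
Peaks per Mb (vertical axis) in each of the 12 libraries (horizontal axis) on chromosomes 18, 19 and 25 (red circles) and on the 26 other autosomes (grey squares), for all peaks (left) and for peaks with a pileup under 50 (right), with a grey line joining both values of a library. The red circle lies above the grey square in all 12 libraries in both panels, and the gap is widest in MTE_1 and MTE_2.

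On the log2 scale, the density ratio was 0.59 ± 0.12 for high, 0.89 ± 0.05 for medium and 0.42 ± 0.17 for low libraries (SD, n = 4 each). A two-sided exact sign-flip test of 4 libraries has 0.13 as its smallest p, which each level reached. The ratios of the medium libraries did not overlap those of the high or of the low libraries. Medium exceeded high by 0.30, and low was under medium, by a log2 difference of -0.47. Both had p = 0.029 in a two-sided exact permutation test of 4 libraries against 4, the smallest it can give, and an adjusted p of 0.0643 over 9 comparisons by the Benjamini-Hochberg method, so neither passed 0.05. Low and high overlapped (difference -0.17, exact permutation p = 0.2). Libraries of 1 beef come from 2 animals, so p-values measure the spread between libraries, and some of that may be technical. Without LTE_1 the low ratio was 0.48.

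As a share of a library's peaks, the 3 chromosomes held 8.88% to 10.6% in the high libraries, 11.3% to 12.0% in the medium ones and 7.76% to 9.89% in the low ones. The 95% Wilson interval of the highest share, in MTE_2, was 11.6% to 12.3%, and that of the lowest, in LTE_1, was 7.19% to 8.36%. These intervals cover counting error only.

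Pileup, the number of tags stacked at a peak's summit, fell into 2 ranges. Between 1.24% and 7.44% of a library's peaks had a pileup of 30 to 70, and the others lay under or above. A split at 50, chosen after the values were seen, divided the peaks of the 3 chromosomes very differently from those of the others. In the high libraries, 25.5% to 34.5% of peaks on the 3 chromosomes had a pileup of 50 or more, against 44.9% to 53.1% elsewhere. At the medium level the shares were 9.86% to 14.9% against 20.0% to 28.8%, and at the low level 11.6% to 28.1% against 18.9% to 42.5%. In each of the 12 libraries the share was lower on the 3 chromosomes. LTE_1 had the highest share of the low libraries in both sets.

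Chromosomes 18, 19 and 25 were pooled and set against the 26 other autosomes pooled. Their excess in density was then found in peaks with a pileup under 50 and not in the others. Chromosome 25 by itself had an excess in both kinds of peaks. For the peaks under 50, values of the pooled chromosomes follow. Their density ratio was 2.16 and 2.28 in HTE_1 and HTE_2, and 1.88 and 2.02 in HTO_1 and HTO_2. It was 2.15, 2.16, 2.13 and 2.16 in the medium libraries, and 1.48, 1.45, 1.50 and 1.72 in the low ones. Peaks of 50 or more, pooled likewise, were at 0.784 to 0.948 of the density of the other autosomes, under 1 in each library. Per Mb, chromosome 25 alone had 4.417, 5.541 and 3.733 of these peaks at the high, medium and low level. Chromosome 18 had 0.771, 1.021 and 1.067, and chromosome 19 had 0.663, 0.797 and 0.633. The other autosomes had 1.776, 2.158 and 1.796, but among them chromosome 27 had 10.28, 12.96 and 11.61. Chromosome 8 had 4.63, 5.72 and 4.62. Chromosomes 27 and 8 raised the pooled value of the other autosomes, so the ratios under 1 are shown only against all 26 together. The ratio without chromosomes 27 and 8 was not tested.

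**Figure D2:**
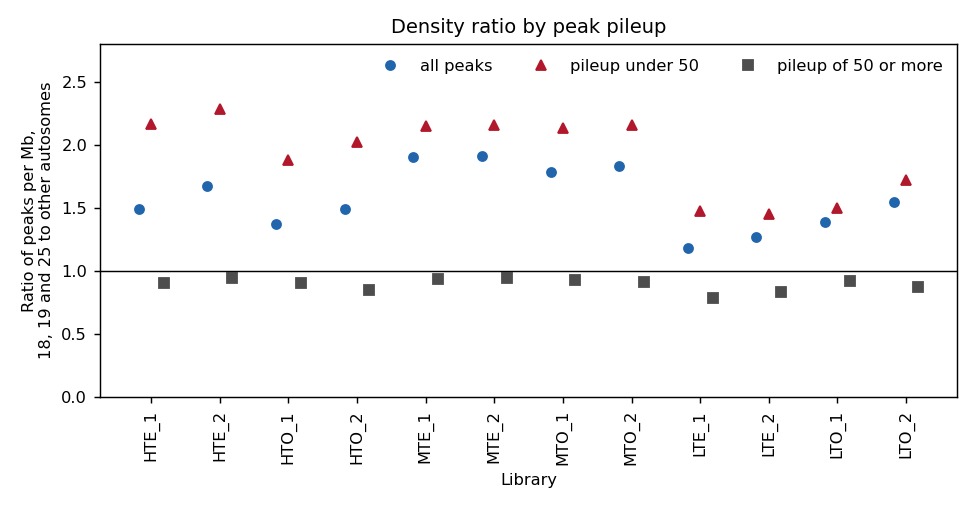
Ratio of peaks per Mb on chromosomes 18, 19 and 25 to peaks per Mb on the other autosomes (vertical axis) in each library (horizontal axis), for all peaks (blue circles), peaks with a pileup under 50 (red triangles) and peaks with a pileup of 50 or more (grey squares), with a line at 1. The triangles lie at 1.88 to 2.28 in the high and medium libraries and at 1.45 to 1.72 in the low ones, and the squares lie under 1 in all 12.

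With the peaks under 50, the difference between medium and high was 0.05 on the log2 scale, and their libraries overlapped (exact permutation p = 0.6). Low was then under both, with no overlap. The log2 difference was -0.49 from medium and -0.44 from high, each with an exact permutation p = 0.029 and an adjusted p of 0.129. The order medium over high therefore held for all peaks only, while low under medium held for both. When 9944 peaks were taken from every library, the medium minus high difference of all peaks was -0.11.

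The lower density ratio of the high libraries moved with the share of high-pileup peaks in the lists, whose part in it was not tested beyond this split. Across the 3 chromosomes the peaks of 50 or more numbered 177 to 334 per library, a narrower span than that of the peaks under 50, from 453 to 3001.

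The median pileup followed the same split. In the high libraries the median was 14 to 16 tags on the 3 chromosomes, against 82, 27, 79 and 23 tags on the others in HTE_1, HTE_2, HTO_1 and HTO_2. At the medium level it was 11 to 12 against 12 to 13, and at the low level 9 to 10 against 10 to 16. The log2 ratio of medians was -1.56 ± 0.95 for high, -0.09 ± 0.11 for medium and -0.28 ± 0.26 for low libraries (SD, n = 4). High was under medium and low with no overlap (exact permutation p = 0.029, adjusted p = 0.0643 for each). Within peaks under 50, the medians of both sets were equal in 11 of 12 libraries, and in HTO_2 they were 11 and 10.

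Peaks were slightly narrower on the 3 chromosomes. Their median width was 253 to 277 bp in high, 195 to 231 bp in medium and 174 to 197 bp in low libraries, and it was 0.887 to 0.980 of the median of the other autosomes in each library. The log2 width ratio was close to -0.08 at each level, with an SD of 0.03, 0.03 and 0.06 at the high, medium and low level (n = 4). Levels overlapped, and the smallest exact permutation p between levels was 0.857. Widths cannot fall below the fragment length d of a list, 146 to 203 bp, and 17.5% to 37.1% of the peaks on the 3 chromosomes lay within 10 bp of it. With peaks under 50 alone, the log2 width ratio was 0.03, -0.00 and 0.01, so the narrower median was found only with the high-pileup peaks included.

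The 3 chromosomes differed from each other. Chromosome 25 had the second highest density of all 29 autosomes at each level by the mean of its 4 libraries, after chromosome 27. Its peaks per Mb were 8.33 ± 0.97 for high, 20.1 ± 3.47 for medium and 11.3 ± 5.64 for low libraries (SD, n = 4). Chromosome 18 had 5.15 ± 0.85, 17.2 ± 4.08 and 10.2 ± 5.09, and chromosome 19 had 4.15 ± 0.81, 15.9 ± 4.44 and 9.67 ± 5.31. Chromosome 18 ranked 3 to 7 over the 12 libraries, chromosome 19 ranked 4 to 12 and chromosome 25 ranked 2 to 4. In 1 library, HTO_1, chromosome 19 was less dense than the 26 other autosomes pooled, with a ratio of 0.988. At the other end, chromosome 2 was the least dense at each level, with 2.04 ± 0.15, 5.84 ± 1.41 and 5.002 ± 2.42.

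Chromosome 25 stood apart from the other 2 in its high-pileup peaks. It had 91 to 216 of them per library, against 40 to 69 on chromosome 18 and 26 to 49 on chromosome 19, although it is the shortest of the 29 autosomes. Per Mb, chromosome 25 ranked 3 or 4 for these peaks in all libraries, while chromosomes 18 and 19 ranked 16 to 27. With peaks under 50 the order changed. Chromosome 18 was then first in 11 of 12 libraries and second in LTO_1, where chromosome 19 was first. Chromosome 19 ranked 1 to 4 and chromosome 25 ranked 2 to 8. The lowest ranks of chromosome 25, at 8, were in LTE_1 and LTE_2.

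For peaks under 50, chromosome 18 was 2.33 ± 0.12 times as dense as the other autosomes at the high level, 2.26 ± 0.05 times at the medium and 1.63 ± 0.10 times at the low. Chromosome 19 stood at 1.85 ± 0.18, 2.095 ± 0.08 and 1.59 ± 0.12 times, and chromosome 25 at 2.07 ± 0.25, 2.05 ± 0.07 and 1.31 ± 0.19 times (SD, n = 4). On each of the 3 chromosomes the low level had the smallest mean ratio. The spread of the libraries was widest on chromosome 25 at the high level.

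Over the 29 autosomes, the density of peaks under 50 rose with the number of protein-coding genes per Mb. Pearson's r was 0.69 for high, 0.77 for medium and 0.65 for low libraries, and Spearman's rho was 0.54, 0.59 and 0.51. Without the 3 chromosomes r was 0.34, 0.44 and 0.28 over 26 autosomes, so much of the relation rested on them. High-pileup peaks did not follow gene density, with r of -0.11, -0.10 and -0.10. These correlations describe chromosomes of the same libraries, which also share base composition, and they set gene counts of one assembly beside peaks of another.

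**Figure D3:**
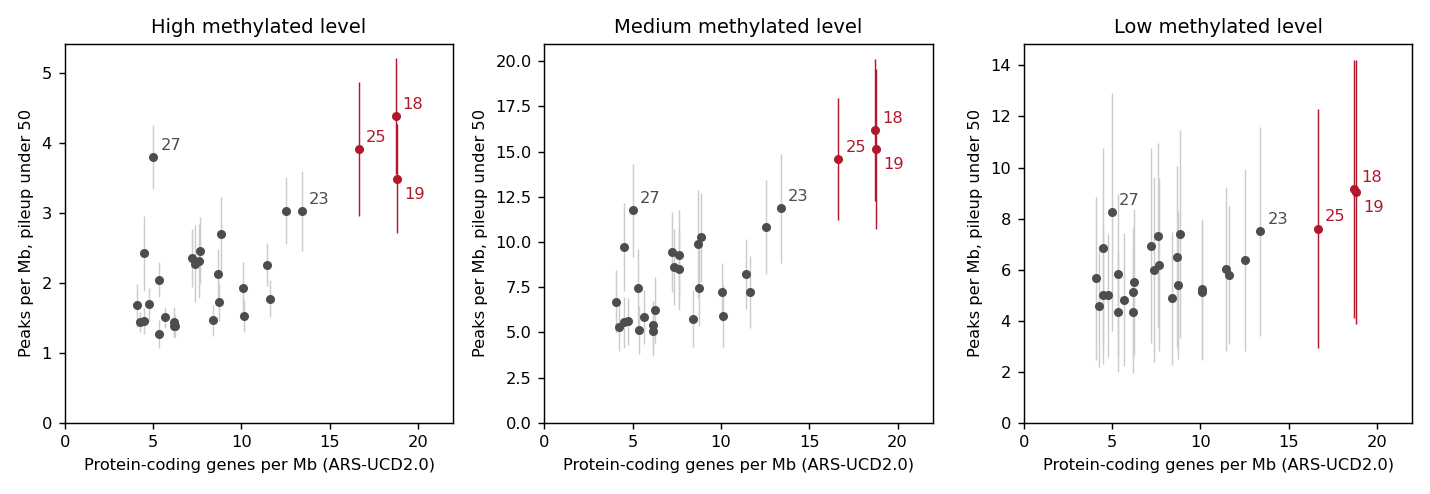
Peaks per Mb with a pileup under 50 (vertical axis, mean and SD of 4 libraries) against protein-coding genes per Mb in ARS-UCD2.0 (horizontal axis) for the 29 autosomes at the high, medium and low level (panels, each with its own vertical scale), with chromosomes 18, 19 and 25 in red and 23 and 27 also numbered. The 3 red points lie farthest right, and chromosome 27 lies high for its few genes.

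The peaks were spread over most of the length of the 3 chromosomes. Their 154 whole windows of 1 Mb held a median of 8.71 peaks by the mean of 12 libraries, against 3.92 in the 2172 windows of the other autosomes. Only 3 of the 154 windows, or 1.95%, held fewer than 2 peaks, against 399 windows, or 18.4%, elsewhere. The 15 fullest windows held 27.9% of the peaks on the 3 chromosomes, while the 217 fullest held 40.7% on the others. High-pileup peaks were far more clustered in both sets. On the 3 chromosomes 93.6% of them lay in 15 windows, and 122 of the 154 windows (79.2%) held none. On the other autosomes 91.3% lay in 217 windows, and 76.9% of the windows held none.

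The distal part of each chromosome was the densest. For peaks under 50, the last of 3 equal stretches of chromosome 18 held 7.91 ± 1.27, 22.9 ± 4.61 and 12.6 ± 6.28 peaks per Mb at the high, medium and low level. The middle stretch held 1.65 ± 0.47, 7.54 ± 1.88 and 6.01 ± 3.73 (SD, n = 4). On chromosome 19 the last stretch held 4.83, 21.4 and 10.9 peaks per Mb, the middle 2.74, 12.96 and 8.62, and the first 2.88, 11.1 and 7.60. On chromosome 25 it held 6.58, 22.3 and 10.1 and the middle 2.34, 9.49 and 5.47. The other autosomes were also densest in the last stretch, with 2.73, 10.2 and 6.84, and they held 1.22, 4.83 and 4.34 in the middle one. The middle stretch was the emptiest on the other autosomes and on chromosomes 18 and 25 at each level, but on chromosome 19 the first was emptiest at the medium and low level. The middle stretch of chromosome 18 at the medium level was less dense than the last stretch of the other autosomes.

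The fullest window of chromosome 25, chr25:30000001-31000000, held 64 to 78 peaks in the high libraries, 96 to 108 in the medium and 38 to 88 in the low. Of its mean of 80.4 peaks, 71.8 had a pileup of 50 or more. The fullest window of chromosome 18, chr18:11000001-12000000, held 29 ± 2.16, 54.0 ± 9.76 and 34.2 ± 13.2 peaks at the high, medium and low level, and 23.3 of its mean of 39.1 were high-pileup peaks. On chromosome 19 it was chr19:57000001-58000000, with 26.5 ± 1.73, 56.0 ± 9.13 and 31.8 ± 12.4 peaks (SD, n = 4). In each of the 3 windows the medium level held the most peaks. The emptiest windows were chr18:28000001-29000000, with a mean of 0.833 peaks, chr19:6000001-7000000, with 2.50, and chr25:24000001-25000000, with 2.42. The latter 2 had no peak in any high library.

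Levels were then compared window by window with limma, on the log2 share of a library's peaks in each window after adding 0.5 peaks. Of 1924 windows with a mean of at least 2 peaks, 151 were on the 3 chromosomes, and adjusted p-values under 0.05 over all 1924 were called. From high to medium, 58 of the 151 were higher (38.4%), beside 22.7% of all windows, and 10 were lower (6.62%), beside 12.8%. From medium to low, 38 were lower (25.2%), beside 8.32%, and 2 were higher (1.32%), beside 5.67%. From high to low, 42 were higher (27.8%), beside 25.7%, and 29 were lower (19.2%), beside 13.6%. Single libraries moved these counts. The 38 fell to 17 without LTO_1 (11.3%, beside 3.45% of all windows) and to 18 to 23 without a medium library (11.9% to 15.2%, beside 3.40% to 4.09%). Without MTO_2 the 58 became 37 (24.5%, beside 15.3% of all), and without LTO_1 the 29 became 19 (12.6%, beside 10.9%). The shares of the 3 chromosomes stood above the background for windows that gained at the medium level and for windows that lost from medium to low, and near it for gains from high to low.

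The median difference over the 151 windows was 0.45 from high to medium, -0.24 from medium to low and 0.01 from high to low. Over the other windows it was 0.18, 0.16 and 0.25. Scaling libraries to their median window moved the median of all windows from 0.23 to -0.13 between high and low, from 0.20 to 0.06 between high and medium and from 0.14 to -0.07 between medium and low. This scaling shifts all windows of a comparison by 1 constant. The medians of the 151 windows were then 0.30 from high to medium, -0.45 from medium to low and -0.34 from high to low. Calls from high to low then went from 42 higher and 29 lower to 23 higher and 46 lower. The 23 were 15.2%, beside 16.0% of all windows, and the 46 were 30.5%, beside 21.8%. With peaks under 50, 33 of 149 windows (22.1%) were lower from medium to low, beside 6.06% of all, and none was higher, beside 2.89%. Another 47 (31.5%) were lower from high to low, beside 18.6%, and 21 (14.1%) were higher, beside 16.8%. From high to medium 14 (9.40%) were higher, beside 6.5%, and 11 (7.38%) were lower, beside 12.3%.

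**Figure D4:**
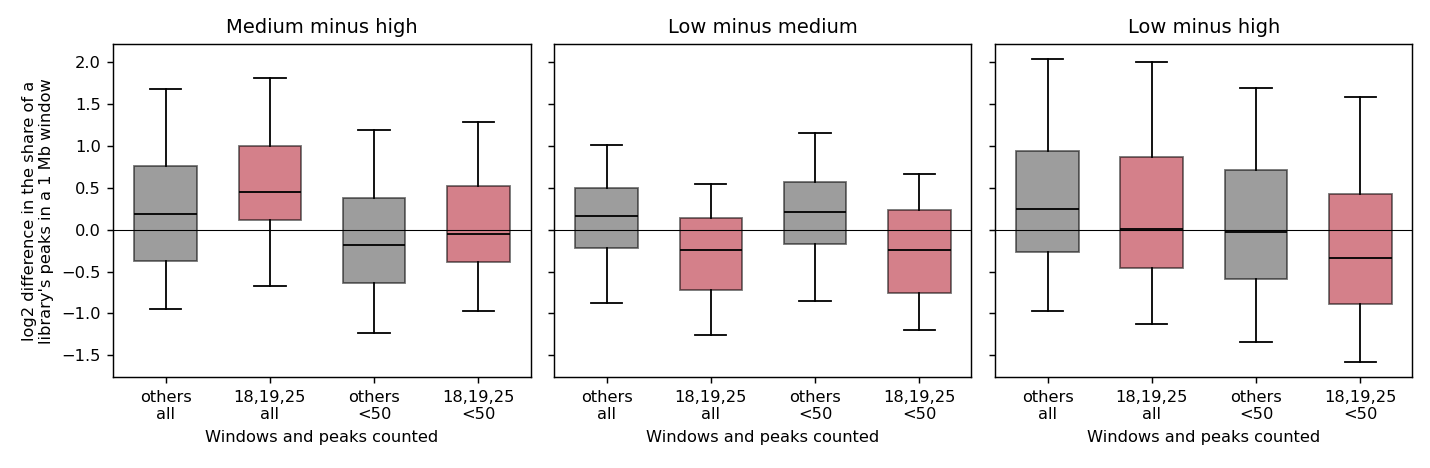
Difference between levels in the log2 share of a library's peaks in a 1 Mb window (vertical axis), from limma, for windows of the other autosomes (grey) and of chromosomes 18, 19 and 25 (red), with all peaks and with peaks of pileup under 50 (horizontal axis), in 3 comparisons (panels). Boxes span the middle 50% of windows with the median as a line and whiskers reach the 5% and 95% points. In the low minus medium panel both red boxes have their median at -0.24, under the grey medians of 0.16 and 0.21.

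Windows with the smallest adjusted p show what the comparison found. From high to medium, chr25:14000001-15000000 went from 2, 1, 1 and 1 peaks in the high libraries to 22, 28, 12 and 12 in the medium ones. Its log2 difference was 2.02 (SE 0.23, limma adjusted p = 0.000119). In chr18:6000001-7000000 the high libraries held 3 to 4 peaks and the medium ones 46, 50, 19 and 25 (1.59, SE 0.20, adjusted p = 0.000165). Neither window held a high-pileup peak. The 3 windows with the smallest adjusted p among those that lost share from high to medium were all on chromosome 25. One was the fullest window, chr25:30000001-31000000 (-0.85, SE 0.11, limma adjusted p = 0.00017), whose count of peaks was higher at the medium level while its share was lower.

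From medium to low, chr18:55000001-56000000 went from 37, 34, 30 and 29 peaks in the medium libraries to 4, 9, 16 and 18 in the low ones. Its log2 difference was -1.15 (SE 0.14, limma adjusted p = 0.000281), and the high libraries held 14 to 18. This window also had the smallest adjusted p of the 3 chromosomes for a lower share from high to low (-1.49, SE 0.14, limma adjusted p = 7.28e-06). In chr19:56000001-57000000 the medium libraries held 41, 47, 31 and 34 peaks and the low ones 4, 7, 17 and 24 (-1.33, SE 0.16, adjusted p = 0.000281). In both windows each tough low library held more peaks than each tender one. Of the 2 windows with a higher share at the low level, chr18:33000001-34000000 held 6 to 9 peaks in the medium and 9 to 17 in the low libraries (1.16, SE 0.20, limma adjusted p = 0.00257). A mean of 6.17 of its peaks had a pileup of 50 or more.

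Tough and tender beef were compared at each level. At the high level the log2 density ratio of the 3 chromosomes was 0.52 in tough and 0.66 in tender beef, a difference of -0.14, and the libraries overlapped (exact permutation p = 0.667). At the medium level it was 0.86 in tough and 0.93 in tender, a difference of -0.08 with no overlap. At the low level it was 0.55 in tough and 0.30 in tender, a difference of 0.26 with no overlap. The smallest p of an exact permutation test of 2 libraries against 2 is 0.33, the value of both. In the low libraries tough beef also had longer lists, with 24037 and 24079 peaks away from the ends against 8123 and 14534. When 9944 peaks were taken from every library, the low difference was -0.11, so its direction was not kept.

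The change of direction between levels was tested too. The tough minus tender difference was 0.33 larger at the low than at the medium level, with an exact permutation p = 0.0556, the smallest this design allows, and an adjusted p of 0.25 over 9 comparisons. Among peaks under 50 the medium difference was -0.00 with overlapping libraries (exact permutation p = 1), the low difference was 0.13, and the high difference was -0.19, the latter pair without overlap (exact permutation p = 0.33 each). No difference in width or pileup between the beefs passed the test, which 2 libraries against 2 cannot do.

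Few windows of the 3 chromosomes differed between the beefs. At the high level limma called 1 of the 151 lower (0.156% of all windows) and none higher (0.156%). This window, chr18:43000001-44000000, held 7 and 9 peaks in tender and 3 and 2 in tough beef (-1.43, SE 0.25, adjusted p = 0.0322). The call was lost in 7 of 12 fits that left out 1 library, namely HTE_2, LTO_1, LTO_2 or a medium library, and with scaling to the median window. At the medium level no window was called in either direction among all 1924 (0%), and 94 of all and 10 of the 151 had an unadjusted limma p under 0.05. At the low level 4 of the 151 were higher in tough beef (1.66% of all windows) and 1 was lower (1.82%). In chr25:25000001-26000000 the tough libraries held 10 and 20 peaks and the tender ones 1 and 3 (1.54, SE 0.34, limma adjusted p = 0.0292). The low calls depended on single libraries. Without LTE_2, 28 windows were higher (18.5%, beside 12.3% of all) and 7 lower (4.64%, beside 7.32%). Without HTE_2 the counts were 2 (1.32%, beside 1.06%) and 0 (beside 1.11%). None of the 3 chromosomes was called in either direction without LTO_1, LTO_2 or any 1 of the 4 medium libraries. Of all windows, 0% to 0.264% were then higher and 0% to 0.519% lower. Scaling to the median window left 0 higher (beside 0.364% of all) and 1 lower (0.662%, beside 1.14%). For peaks under 50, no window of the 3 chromosomes was called between beefs at any level. Of all windows 0.109% were higher and 0.218% lower in tough beef at the high level, and none at the other levels. Unadjusted, 6, 4 and 27 of the 149 had a limma p under 0.05 at the high, medium and low level. Of all 1832 windows, 137, 51 and 222 did.

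Regions called in 1 beef only were counted after the 4 lists of a level were joined wherever their peaks overlapped. A region was specific where it had a peak in both libraries of one beef and in no library of the other. At the high level, 62 of 1354 regions of the 3 chromosomes were tender-specific, or 4.58% (95% Wilson interval 3.59% to 5.83%), beside 3.33% of all regions. Another 13, or 0.960% (0.562% to 1.64%), were tough-specific, beside 1.68%. At the medium level 468 of 4856 were tender-specific, or 9.64%, beside 8.76%, and 76, or 1.57%, were tough-specific, beside 1.64%. At the low level the sides changed, with 27 of 4245 tender-specific, or 0.636%, beside 0.461%, and 415, or 9.78%, tough-specific, beside 9.27%. The shares at the medium and low level were near those of all autosomes.

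The balance of the beefs moved with the length of the lists. Lists were then cut to the shortest of their level (10550 peaks for high, 24746 for medium and 9944 for low). The medium level then had 199 tender-specific regions on the 3 chromosomes (5.10%, beside 4.87% of all). It had 192 tough-specific ones (4.92%, beside 4.88%). The low level had 42 (3.01%, beside 2.25%) and 34 (2.44%, beside 2.85%). The high level had 42 and 21. There 3.71% of the regions of the 3 chromosomes were tender-specific, beside 2.74% of all, and 1.86% were tough-specific, beside 2.36%. The chromosomes differed there, with 22 tender-specific and 9 tough-specific regions on chromosome 18, 7 and 7 on chromosome 19, and 13 and 5 on chromosome 25. Without LTE_1, the shortest list, 507 low-level regions were called in LTE_2 and in neither tough library (12.3%, beside 11.9% of all). Another 476 were called in both tough libraries and not in LTE_2 (11.6%, beside 11.03% of all). Both shares were near those of all autosomes.

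Some specific regions were well enriched in both libraries. The tender-specific region of the high level with the highest lower fold enrichment was chr25:38269560-38269873. It had pileups of 25 and 24 in HTE_1 and HTE_2 and fold enrichments of 12.9 and 11.3 over the local background. It had no peak in the tough high libraries but a peak of 19 in MTO_1 and of 14 and 13 in MTE_1 and MTE_2. The tender-specific region of the medium level was chr19:13909141-13909343, with pileups of 15 in both tender libraries and a peak of 8 in LTO_1. The tough-specific one was chr18:51862247-51862540, with 14 and 18 in MTO_1 and MTO_2, and it was also called in HTE_2, HTO_1, HTO_2 and LTO_1.

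At the low level, chr19:9305057-9305329 was tough-specific with a pileup of 13 in both libraries, and MTO_1 and MTE_1 had peaks of 10 and 8 there. The tender-specific region chr18:59526389-59526781 had pileups of 13 and 15 at the low level. It also had peaks in all 4 high libraries, the tough ones included, and in both tender medium libraries. The tough-specific region of the high level, chr25:28006112-28006422, had pileups of 8 and 9 there and peaks in all 4 medium libraries. All 6 of these regions thus had a peak in the other beef at another level.

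Joined over all 12 libraries, the peaks of the 3 chromosomes formed 6813 regions. Of these, 30.5% were called at the medium level alone, against 22.8% on the other autosomes, and 28.4% at the low level alone, against 35.6%. Regions of the high and medium level but not the low made up 7.54% against 5.29%, and regions of all 3 levels 11.1% against 14.8%. The 95% Wilson intervals of both sets were apart in each of these 4 classes, the nearest being 6.94% to 8.20% against 5.10% to 5.48%. Regions are not independent replicates, and intervals cover counting error only. Regions of the medium and low level were at 21.5% and 20.7%, and regions of 1 library at 45.6% and 46.6%.

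**Figure D5:**
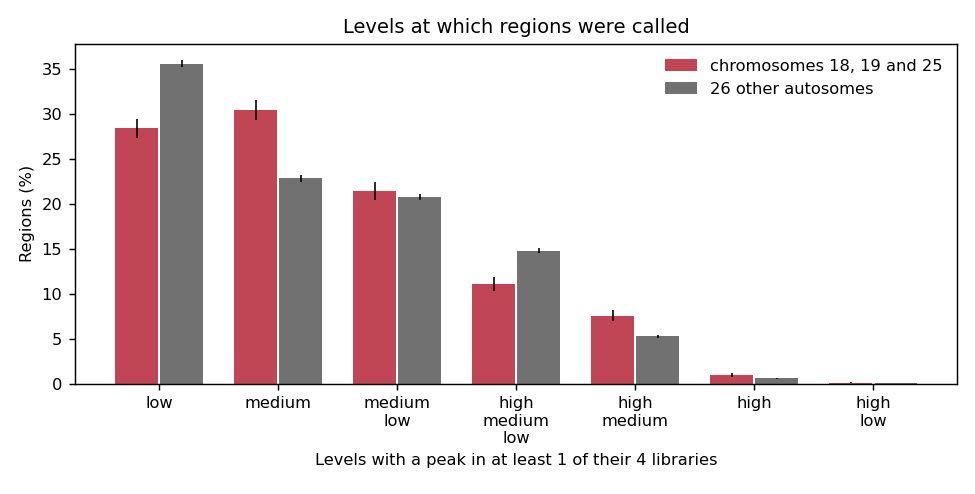
Share of regions in percent (vertical axis) by the levels that had a peak in at least 1 of their 4 libraries (horizontal axis), for 6813 regions of chromosomes 18, 19 and 25 (red) and 53063 regions of the other autosomes (grey), with 95% Wilson intervals. The red bar is above the grey for medium alone, 30.5% against 22.8%, and under it for low alone, 28.4% against 35.6%.

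With peaks of any pileup, the medium-only share was 30.1%, 31.5% and 29.5% on chromosomes 18, 19 and 25. Regions of all 3 levels were at 10.9%, 8.40% and 15.5%. Among peaks under 50, 31.7% against 24.5% on the other autosomes were called at the medium level alone and 29.8% against 38.9% at the low level alone. Regions of all 3 levels were then at 8.98%, 6.91% and 6.99% on chromosomes 18, 19 and 25, so that the higher share of chromosome 25 was lost. Pooled, the 3 chromosomes were at 7.73% against 8.51% on the other autosomes, closer than with peaks of any pileup. When 9944 peaks were taken from every library, the medium-only share was 15.9% against 11.6% and the low-only share 35.6% against 40.5%. The 3 chromosomes thus stayed above the others for medium alone and under them for low alone, but low alone became their largest class.

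Regions called in all 12 libraries were fewer on the 3 chromosomes. There were 144, or 2.11% (1.80% to 2.48%), against 4.93% on the other autosomes, which is 0.929 against 1.198 per Mb. Chromosome 25 held 71 of them, 1.92 per Mb, while chromosome 18 held 42 and chromosome 19 held 31, or 0.70 and 0.534 per Mb. In 119 of the 144 the lowest pileup over the libraries was 50 or more. The other 25, with a lower lowest pileup, gave 0.161 regions per Mb against 0.159 on the other autosomes, so the shortfall lay in regions of high pileup.

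The all-library region of chromosome 18 with the highest lowest fold enrichment was chr18:15473761-15474192, at 22.01 to 33.8. Its pileup was 50 and 59 in LTE_1 and LTE_2 and 79 to 138 in the other libraries. On chromosome 19 it was chr19:43394450-43394859, with fold enrichments of 18.7 to 32.7 and pileups of 42 to 126. On chromosome 25 it was chr25:6039040-6039566, with 22.6 to 30.7 and pileups of 88 to 207. In all 3 regions LTE_1 had the lowest pileup. Widths were 432, 410 and 527 bp.

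The 6 merged lists gave 1 value per condition and no spread. Density ratios were 1.84 for HTE and 1.69 for HTO, 1.78 and 1.90 for the medium pair MTE and MTO, and 1.32 and 1.37 for the low pair LTE and LTO. The low level was again the lowest, while the high and medium lists lay within the same range. With peaks under 50 the ratios were 2.23 and 2.13, 1.85 and 2.03, and 1.36 and 1.40 in the same order. Merged lists were called with another version of the peak caller and another genome size than the single lists, so their levels were not compared with those.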

How the data were processed

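MBD-seq libraries of 12 samples were used, in 6 groups of 2 taken from the titles. The authors filtered reads with SOAPnuke and mapped them to bosTau8 with BWA (0.7.7 in the submitters' processing notes). Only uniquely mapped reads entered peak calling with MACS2, which used no input control and a q-value limit of 0.01. Per the file headers, single libraries used version 2.1.1.20160309 and a genome size of 2600000000 bp, merged replicates 2.1.0.20150731 and 2660939081 bp, keeping 1 tag per position and a local background over 10000 bp. The deposited lists hold each peak's width in bp, its pileup (a signal, in tags, not scaled for depth by the authors) and its fold enrichment (the ratio of the pileup to the local background). They also give −log10 values of p and q from the authors' MACS2 run. Calls were made per library, so depth (3677473 to 7981292 tags left) is part of each list, and pileup was compared only within a list.

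From these, peaks per Mb, median width and median pileup of chromosomes 18, 19 and 25 were divided by those of the other autosomes within each library, and log2 ratios were tested by two-sided exact sign-flip and permutation tests, adjusted by the Benjamini-Hochberg method over 9 comparisons. Windows of 1 Mb were tested with limma 3.58.1 (R 4.3.3; a mean of at least 2 peaks, 0.5 added, threshold 0.05). On simulated medium minus high windows, limma recovered 80 of 200 with a fold of 2 and 191 of 200 with a fold of 4, with 3 and 19 false calls. Regions joined peaks with at least 1 bp in common. Shares have Wilson intervals at the 95% level. Python 3.11.15, numpy 2.4.6 and pandas 2.3.3 were used.

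Chromosomes were named by the rule; windows and regions were named by their peak counts, smallest adjusted p or highest lower fold enrichment. The chromosomes, lists and tests were chosen with earlier results of these data known, and the split at a pileup of 50 after its values were seen. Replicate numbers are not said to match between eluates. Differences between replicates 1 and 2 in the density of the 29 autosomes correlated between levels at -0.27 to 0.73, so the numbers were not taken as pairs. No sequence is printed, since no genome of the lists' build was used here. Alternatives were other ends, thresholds, peak numbers, windows, scalings and pileup limits.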

Additional observations from a re-analysis of the deposited data

Results flagged for a closer look

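The pileup log2 ratio of LTE_1 was -0.68, while the other 3 low libraries were equal at -0.15, which set it apart from its group by Dixon's gap test at the 95% level. For values without ties such a gap is found by chance in about 1 in 20 groups, and 9 groups were tested. Here the other 3 values were tied, so any differing value would have been set apart. LTE_1 also had the fewest peaks and, of the low libraries, the largest share with a pileup of 50 or more.

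The tough minus tender difference in the log2 density ratio had opposite signs at the low and the medium level with no overlap of the beefs at either, and differed by 0.33 between them (exact permutation p = 0.0556, adjusted 0.25). The tough minus tender difference in the log2 width ratio likewise differed by 0.080 between the high and the medium level (exact permutation p = 0.0556, adjusted 0.25).

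The ends of chromosomes 18, 19 and 25 were used only in the alternative run on whole chromosomes. They held a mean of 26.6 peaks per Mb over the 12 libraries, from 7.72 in LTE_1 to 51.9 in MTE_2. The ends of the other autosomes held 8.29 and 44.0 in the same libraries.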

How the results depend on the processing

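The higher density on the 3 chromosomes at each level, low under medium, and the level pattern of regions kept their direction under every alternative run, except that peaks of pileup 50 or more alone gave log2 density ratios of -0.15, -0.10 and -0.23 for high, medium and low. Values below are log2 ratios or differences unless given as counts, and for reversed or moved values the cause was not tested. No density, width or pileup ratio had an adjusted p under 0.05 in any setting tested.

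A fold enrichment of at least 3 gave a width difference of 0.079 for low minus high. With 9944 peaks from each library, density was -0.11 for medium minus high and -0.11 for tough minus tender at the low level. Width was -0.061 for medium minus high and 0.040 for tough minus tender at the medium level, and pileup was 1.00 for low minus medium. With lists cut to the shortest of their level (10550, 24746 and 9944 peaks), specific regions were 21 tough at the high level (1.86%, beside 2.36% of all). They were 199 tender (5.10%, beside 4.87%) and 192 tough (4.92%, beside 4.88%) for medium. For low they were 42 tender (3.01%, beside 2.25%) and 34 tough (2.44%, beside 2.85%). The tender share for low was 55.3%, beside 44.0% over all autosomes. Without chromosome 25, density was 0.033 for low minus high and width -0.032 for medium minus high.

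Limits on pileup were added after the data were seen. Under 50, width was 0.027 at the high and 0.015 at the low level and -0.028 for medium minus high, and pileup was 0.034 at the high level and -0.034 for medium minus high and low minus high. Under 30, width was 0.025, 9.82e-05 and 0.017 at the 3 levels. Pileup was 0.066 at the high and 0.034 at the medium level, -0.031 for medium minus high, -0.066 for low minus high and 0.069 for tough minus tender at the medium level. At 50 or more, width was -0.051 for medium minus high and 0.0032 for tough minus tender at the medium level. Pileup was 0.10 at the high level, -0.11 for medium minus high, -0.26 for low minus high and 0.11 for tough minus tender at the medium level.

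In the merged lists, density was 0.82 at the high level, 0.062 for medium minus high, -0.39 for low minus high, and 0.092 and 0.061 for tough minus tender in medium and low lists. Width was 0.026 for medium and 0.033 for low, 0.11 for medium minus high and 0.12 for low minus high. Pileup was -0.36, 0.11 and 0.14 at the 3 levels, 0.47 for medium minus high, 0.034 for low minus medium, 0.50 for low minus high and -0.014 for tough minus tender at the low level.

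Of the windows, adding 1 peak gave 2 lower from tender to tough at the low level (1.32%, beside 2.70% of all). Scaling to the median window gave 1 higher from medium to low (0.662%, beside 1.40% of all). From high to low it gave 23 higher (15.2%, beside 16.0%) and 46 lower (30.5%, beside 21.8%). It gave 0 between beefs at the high level or higher at the low level. Windows of 2 Mb, of which there are fewer, gave 36 higher and 5 lower from high to medium, 0 higher and 25 lower from medium to low, 23 higher and 17 lower from high to low, and 0 lower in tough beef at the low level. Peaks under 50 gave 14 higher from high to medium (9.40%, beside 6.50% of all) and 0 higher from medium to low (beside 2.89%). From high to low they gave 21 higher (14.1%, beside 16.8%) and 47 lower (31.5%, beside 18.6%), and between beefs 0.

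Leaving out 1 library gave 37 to 64 windows higher from high to medium (37 without MTO_2), beside 14.1% to 26.2% of all windows. From medium to low 1 to 3 were higher, beside 1.32% to 10.6%. Another 17 to 48 were lower (17 to 23 without LTO_1 or any medium library), beside 3.40% to 13.4%. From high to low 19 to 37 were lower (19 without LTO_1), beside 10.9% to 16.2%. Between beefs, leaving out 1 library gave 0 to 1 lower at the high level (0 in 7 of 12 cases). At the low level it gave 0 to 28 higher and 0 to 7 lower. The 28 and 7, without LTE_2, were 18.5% and 4.64%, beside 12.3% and 7.32% of all windows. A specific region then needs a peak in 1 library of a beef, which relaxes the definition. High-level counts were 107 to 249 tender (8.22% to 19.7%, beside 6.22% to 14.1% of all regions). They were 30 to 143 tough (2.37% to 10.99%, beside 3.19% to 10.96%). The tender share was 42.8% to 89.2%, beside 36.2% to 81.5% over all autosomes. Medium counts were 689 to 1292 tender (14.9% to 30.9%, beside 13.6% to 28.6%). They were 154 to 366 tough (3.69% to 7.89%, beside 3.59% to 7.2%). Low counts were 46 to 507 tender (1.51% to 12.3%, beside 1.3% to 11.9%). They were 476 to 1697 tough (11.6% to 53.5%, beside 11.03% to 47.3%). The low tender share was 2.75% to 51.6%, beside 2.73% to 51.8%, the highest without LTE_1.

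The replicate number as a block left every level difference in density as it was (0.30 for medium minus high). It gave 39 windows lower from medium to low (25.8%, beside 8.42% of all). From high to low 43 were higher (28.5%, beside 26.1%) and 30 lower (19.9%, beside 13.6%). No count of calls changed by over 1.5 times. Depth limits what a list can hold, with 3677473 to 4843388 tags left in the high, 5969045 to 6886676 in the medium and 5770411 to 7981292 in the low libraries.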
